A study of Mus musculus with 10 samples.

Results

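Osteoclast effector genes are the genes with which the bone-resorbing cell dissolves mineral and matrix. The 9 members described here are Acp5, Ctsk, Atp6v0d2, Tcirg1, Clcn7, Ostm1, Oscar, Calcr and Nfatc1. They were taken by gene name from 22125 gene names present in both expression tables, with earlier results of these data known. Each name had 1 row in each table. RNA sequencing covered 10 mouse libraries in 4 groups. Rib chondrocytes of newborn ICR mice at postnatal day 1 were sorted for a Col2a1-ECFP transgene (Col2+, 3 libraries) or for a Col10a1-mCherry transgene (Col10+, 3 libraries). Calvarial osteoblasts of C57BL/6 embryos at E17.5 carried the genotype Runx2_cHet_KO or Runx2_cHom_KO (2 libraries each). The labels name no sort for the osteoblasts, which were released by enzyme from the frontal bone and the rostral parietal bone. They also do not spell out the Runx2 alleles, the Cre driver or the pooling of embryos, and every osteoblast library carries a conditional Runx2 genotype.

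Osteoclasts form by fusion of cells of the monocyte and macrophage lineage under the cytokines M-CSF and RANKL, with Nfatc1 as the central transcription factor and Oscar as a costimulatory receptor. The attached cell pumps protons through a vacuolar ATPase into a sealed space, and chloride follows through the Clcn7 and Ostm1 transporter. The acid dissolves mineral, and cathepsin K (Ctsk) then digests the collagen, while tartrate-resistant acid phosphatase (Acp5) is the classical histochemical stain of the cell. Loss of Tcirg1, Clcn7 or Ostm1 causes osteopetrosis in mice and humans. At birth, osteoclasts and related cells work at the border of hypertrophic cartilage and on the growing skull bones, next to the cells studied here.

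Values are FPKM, fragments scaled to transcript length and to the mapped fragments of a library, so that levels of different genes can be set side by side. The rib table gives 1 value per sort for 3 libraries, so no rib difference has an error or a test. The osteoblast table gives 1 value per library, in the order Runx2_cHet_KO 1 and 2 and Runx2_cHom_KO 1 and 2 throughout. Total depth is unknown, and steps of rarely read genes put 1 read of Runx2_cHet_KO library 1 at 0.795 to 0.844 times the worth of a read in the other libraries, which makes it the deepest. Col10a1 was at 59.5 FPKM in Col2+ and 2895 FPKM in Col10+ cells. Runx2 was at 43.4, 53.9, 32.9 and 32.6 FPKM in the osteoblast libraries (limma log2 change -0.55, standard error 0.13, adjusted p = 0.0707), so the targeted gene did not pass the test at the level of the whole gene. Without Runx2_cHet_KO library 1 the change was -0.70 (adjusted p = 0.0244). Runx2_cHet_KO library 1 stood apart in macrophage genes, with a summed 499 FPKM over 14 markers against 74.7 to 109 FPKM in the other osteoblast libraries. Its effect is given below where leaving it out changed a call, turned a direction or moved a member's value.

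The effector genes did not behave as a single block. In Col2+ cells the order of levels was Nfatc1 (49.8 FPKM), Ctsk (17.3), Clcn7 (7.995), Tcirg1 (3.46), Acp5 (2.38), Ostm1 (1.58), Atp6v0d2 (0.244), Oscar (0.068) and Calcr (0.0042). In Col10+ cells Acp5 led at 156 FPKM, ahead of Ctsk (104), Tcirg1 (48.6), Nfatc1 (43.6), Atp6v0d2 (15.3), Clcn7 (9.87), Ostm1 (6.16), Oscar (0.334) and Calcr (0.022). In all 4 osteoblast libraries Ctsk led, at 77.7 to 91.6 FPKM, followed by Nfatc1 at 32.9 to 57.1 FPKM, and these ranges did not overlap. Tcirg1 (5.99 to 8.9998 FPKM), Clcn7 (5.92 to 6.43) and Acp5 (2.28 to 5.54) came next, with Tcirg1 and Clcn7 overlapping, and Ostm1 (1.04 to 3.26) overlapped with Acp5. Atp6v0d2, Oscar and Calcr were under 0.6 FPKM in every osteoblast library and were each listed at 0 in at least 1 of them. A value of 0 in these tables can be a failed estimate and is not read as absence.

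**Figure D1:**
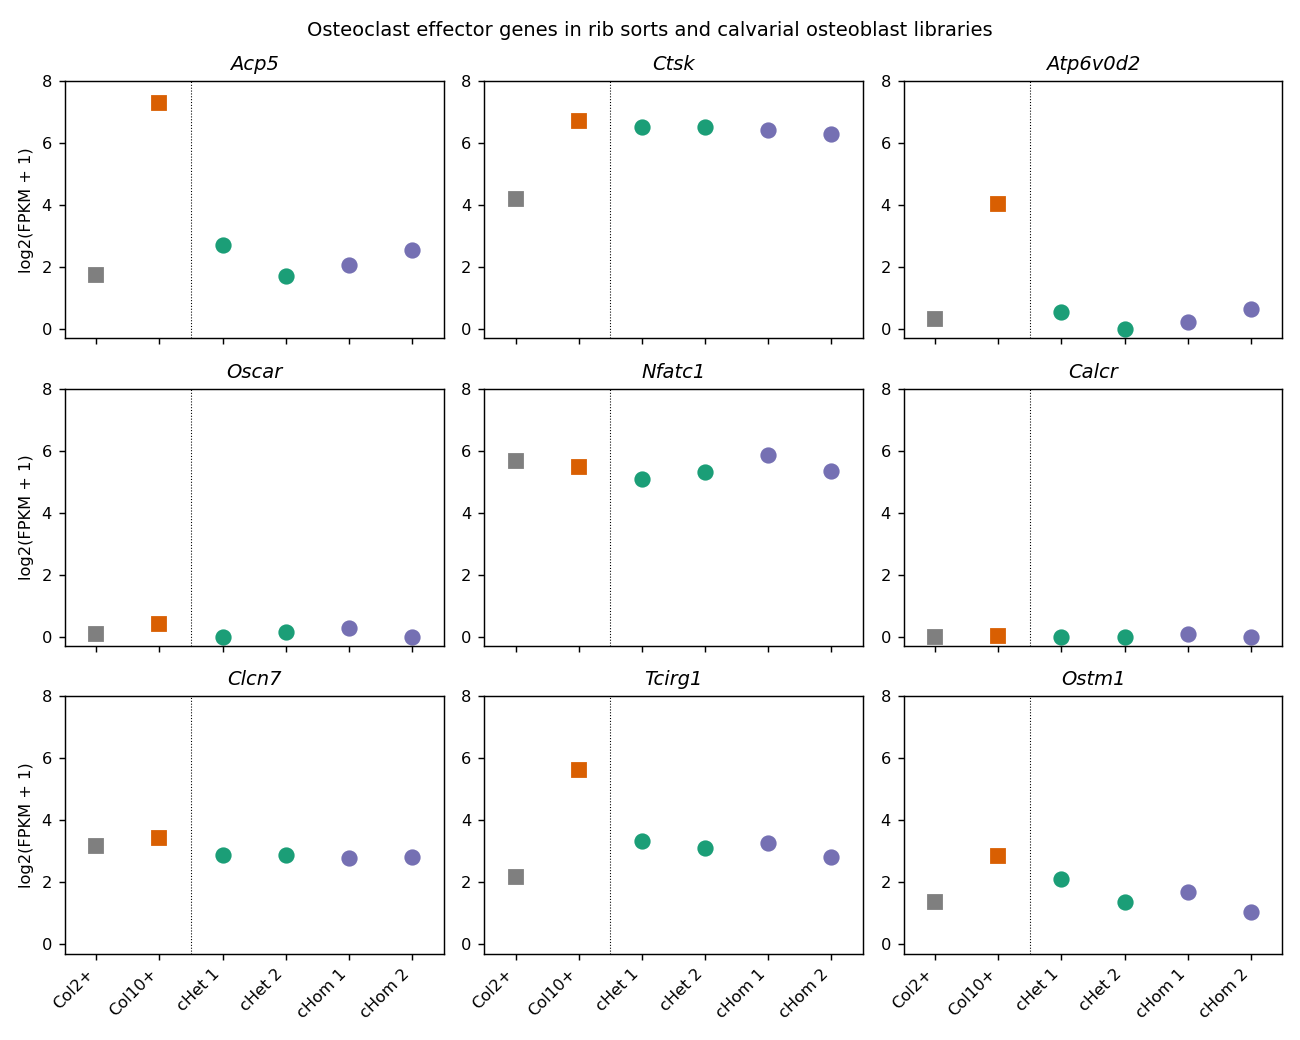
Level of each of the 9 effector genes as log2(FPKM + 1), with squares for the authors' group values of the rib sorts and circles for single osteoblast libraries (cHet, Runx2_cHet_KO; cHom, Runx2_cHom_KO). Acp5, Atp6v0d2 and Tcirg1 stand highest in Col10+ cells, whereas Ctsk is nearly as high in the osteoblasts (77.7 to 91.6 FPKM) as in Col10+ cells (104 FPKM), and Nfatc1 and Clcn7 lie at similar heights in all columns.

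The enzymes Acp5 and Ctsk parted ways between the rib sorts and the osteoblast libraries. These differ together in tissue, strain, age, kit, RNA input and Runx2 genotype, whose parts in any such difference cannot be told apart. Acp5 was at 2.38 FPKM in Col2+ and 156 FPKM in Col10+ cells, 65.6-fold higher, the 294th highest of 22583 named rows in the Col10+ sort and the 8818th in the Col2+ sort. In the osteoblast libraries it was at 5.54, 2.28, 3.15 and 4.86 FPKM. The lowest and the highest library were both Runx2_cHet_KO, so the Runx2_cHom_KO libraries lay inside the range of the other genotype. Ctsk was at 17.3 FPKM in Col2+ and 104 FPKM in Col10+ cells, 6.02-fold higher. In the osteoblasts it was at 89.7, 91.6, 84.1 and 77.7 FPKM, with both Runx2_cHom_KO libraries just below both Runx2_cHet_KO libraries. The ratio of Acp5 to Ctsk, which does not depend on library scaling, was 0.137 in Col2+ cells, 1.497 in Col10+ cells and 0.0249 to 0.0625 in the osteoblast libraries.

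Osteoclast markers are given here for the osteoblast library with the highest Ctsk level. Ctsk varied only 1.18-fold over the osteoblast libraries, so this rank carries little. Runx2_cHet_KO library 2 had Ctsk at 91.6 FPKM, beside 89.7 FPKM in Runx2_cHet_KO library 1. In library 2 Calcr, Atp6v0d2, the antiporter gene Slc9b2 and Dcstamp, the fusion receptor of osteoclast precursors, were listed at 0. Calcr was also listed at 0 in Runx2_cHet_KO 1 and Runx2_cHom_KO 2, and Dcstamp in Runx2_cHom_KO 1. Ocstamp, a partner in fusion, was at 0.036 FPKM and Oscar at 0.116 FPKM in Runx2_cHet_KO library 2. Other markers were read there, with Acp5 at 2.28 FPKM, the RANK receptor gene Tnfrsf11a at 0.604, Mmp9 at 3.20, Itgb3 at 4.14 and Src at 8.79 FPKM. The carbonic anhydrase gene Car2 was at 0.197, Rufy4 at 0.748 and Mmp14 at 246 FPKM. Mmp9, Itgb3 and Src are also used by other cells, and the part of osteoclasts in the Ctsk level was not tested. The same library had the lowest summed level of macrophage genes. Among other lysosomal proteases, Ctsd, Ctsb and Ctsl are used by most cells. Ctsk made up 2.83% of the summed cathepsin FPKM in Col2+ cells and 6.85% in Col10+ cells, against 16.6% to 22.8% in the osteoblast libraries. Of 13 cathepsins other than Ctsk, 11 reached 5 FPKM in either rib sort, and at the 2-fold limit 6 of these were higher in Col10+ cells and 1 was lower. Ctss and Ctsc, proteases of myeloid cells, were at 0.021 and 148 FPKM and at 0.023 and 58.9 FPKM, and Ctsb at 56.5 and 269 FPKM, while Ctsf, the lower one, was at 74.0 and 14.3 FPKM (Col2+ first). Ctse was at 0.014 and 19.2 FPKM, and the neutrophil protease Ctsg was listed at 0 and at 9.75 FPKM. Ctss, Ctsc, Ctse and Ctsg reached 5 FPKM only in Col10+ cells and so entered through the sort in which they were high. Of 10 cathepsins tested in the osteoblasts limma called 0, and the most abundant, Ctsd, was at 134, 112, 95.6 and 87.4 FPKM (log2 change -0.42, standard error 0.13, adjusted p = 0.106). Ctsl was at 51.2, 39.7, 71.9 and 74.5 FPKM (log2 change 0.69, standard error 0.14, adjusted p = 0.0505). Without Runx2_cHet_KO library 1 the median of the cathepsins turned from -0.35 to 0.092, with 0 called, and Ctsl moved to 0.87 (adjusted p = 0.0156).

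The promoter of the most downstream of 3 annotated Acp5 starts carries an E-box of the kind bound by MITF, a basic helix-loop-helix factor that acts with Nfatc1 and PU.1 in osteoclasts. It is shown because Acp5 had the largest difference between the rib sorts of the 9 members. The window runs from 250 bases before to 50 bases after the start (RefSeq, GRCm38.p6, chr9:22130549-22130848, minus strand, 5′ to 3′), and capitals mark the letters TCACATG from base 160 of the window.
Acp5: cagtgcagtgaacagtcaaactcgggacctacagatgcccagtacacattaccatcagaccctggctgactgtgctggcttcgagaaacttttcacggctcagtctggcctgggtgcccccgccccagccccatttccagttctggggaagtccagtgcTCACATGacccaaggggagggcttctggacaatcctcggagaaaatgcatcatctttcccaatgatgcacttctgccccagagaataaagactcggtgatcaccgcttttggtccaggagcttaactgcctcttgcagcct
On either strand, TCACATG or its complement CATGTGA stands in 3.99% of 32851 such windows in the mouse genome. RefSeq windows were read for 7 of the 9 members, 13 windows in all, and 2 of them held this motif, that of Acp5 and that of Oscar. No window was read for Nfatc1 or Atp6v0d2, so the motif counts say nothing about these members. The NFAT core GGAAA was in 8 of the 13 windows, beside 61.3% of all windows. The AP-1 motif TGANTCA was in 0 of the 13 and in 7.81% of all windows. The Runx motif AACCACA was in 1 of the 13, a Clcn7 window, and in 5.27% of all windows. The matches describe letters only, and in these windows no 2 motifs overlapped.

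The proton pump showed the clearest change of composition. Atp6v0d2 encodes the d2 subunit of the membrane sector of the vacuolar ATPase, the form enriched in osteoclasts, whereas most cells use Atp6v0d1. Atp6v0d2 was at 0.244 FPKM in Col2+ and 15.3 FPKM in Col10+ cells, 62.6-fold higher. In the osteoblast libraries it was at 0.477, 0, 0.171 and 0.565 FPKM, and the genotypes overlapped. Atp6v0d1 was at 27.9 and 53.9 FPKM in the rib sorts and at 28.0, 29.8, 24.2 and 24.1 FPKM in the osteoblasts. As a share of both d subunits, Atp6v0d2 was 0.868% in Col2+ cells, 22.1% in Col10+ cells and 0 to 2.29% in the osteoblast libraries. The ubiquitous form was thus the more abundant one in every column.

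Tcirg1 encodes the a3 subunit, which takes the pump to the ruffled border. It was at 3.46 FPKM in Col2+ and 48.6 FPKM in Col10+ cells, 14.1-fold higher, and at 8.9998, 7.71, 8.72 and 5.99 FPKM in the osteoblasts, where the genotypes overlapped. Its paralogue Atp6v0a2 went the other way between the rib sorts, at 23.6 and 14.6 FPKM, under the 2-fold limit. The ratio of Tcirg1 to Atp6v0a2 was 0.147 in Col2+ and 3.33 in Col10+ cells and 0.248 to 0.478 in the osteoblast libraries. The ratio was higher in both Runx2_cHom_KO libraries (0.478 and 0.337) than in both Runx2_cHet_KO libraries (0.277 and 0.248). Over these libraries it was Atp6v0a2 that moved most, at 32.5, 31.1, 18.3 and 17.8 FPKM (log2 change -0.79, standard error 0.10, limma adjusted p = 0.0190), a change under the log2 limit of 1 that a call required here. Atp6v0a1 was at 7.75 and 14.8 FPKM in the rib sorts. Atp6v0a1 in the osteoblasts and Atp6v0a4 in either tissue were not analysed here.

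Other pump subunits differed less than these members. Of 14 other V-ATPase genes at 5 FPKM or more in either rib sort, 4 were higher in Col10+ cells and 0 lower, with a median difference of 0.62 on the log2(FPKM + 1) scale. The B2 and A subunits of the catalytic sector were among them, with Atp6v1b2 at 17.7 and 82.6 FPKM and Atp6v1a at 11.3 and 40.7 FPKM. Atp6v0b was at 38.9 and 90.0 FPKM and the accessory protein Atp6ap2 at 10.3 and 23.6 FPKM. Of 15 pump genes tested in the osteoblasts limma called 0 (median log2 change -0.19). The most abundant were Atp6v0e, at 42.1, 46.2, 33.8 and 32.2 FPKM (adjusted p = 0.0803), and Atp6v1g1, at 33.1, 27.1, 31.3 and 28.7 FPKM.

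**Figure D2:**
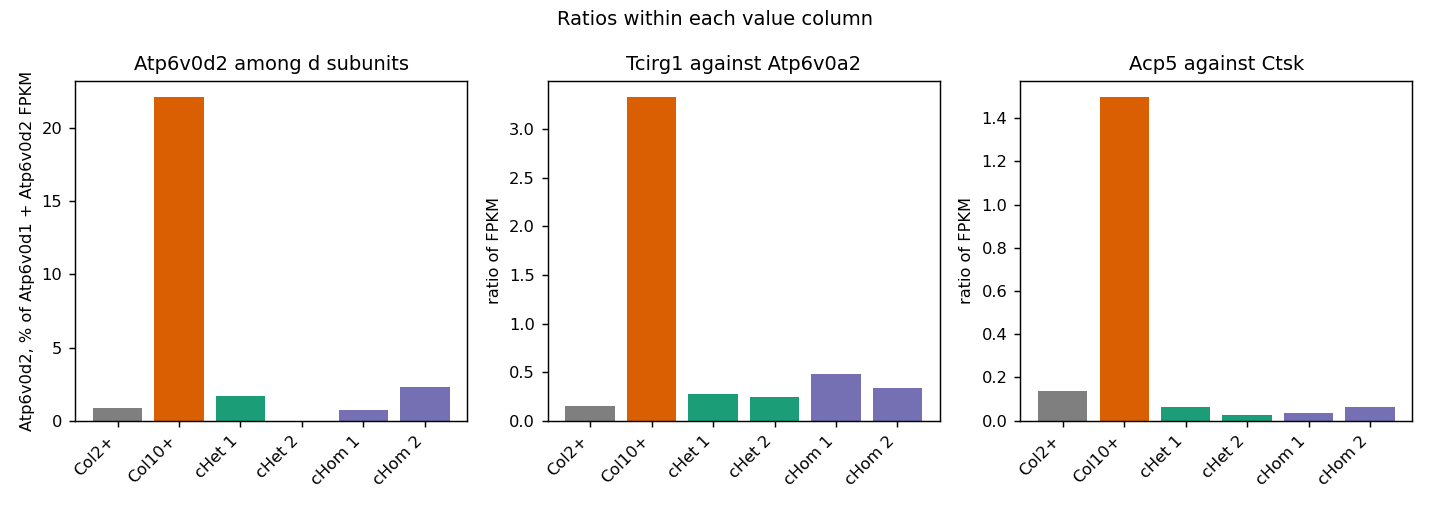
Ratios of FPKM within each value column: Atp6v0d2 as a percentage of both d subunits, Tcirg1 over Atp6v0a2, and Acp5 over Ctsk, with 1 bar for each rib sort value and each osteoblast library. The Col10+ bars stand at 22.1%, 3.33 and 1.497, above every other column in each panel, and all osteoblast bars are at or below 2.29%, 0.478 and 0.0625.

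Clcn7, the chloride and proton exchanger of lysosomes and the ruffled border, was the most even tested member across the osteoblast libraries. It was at 7.995 FPKM in Col2+ and 9.87 FPKM in Col10+ cells, 1.23-fold higher and under the 2-fold limit, and at 6.43, 6.30, 5.92 and 5.98 FPKM in the osteoblasts. The highest osteoblast library exceeded the lowest 1.09-fold. Between the rib sorts Nfatc1 was more even (1.14-fold). The rib difference of Clcn7 in log2(FPKM + 1) moved from 0.27 to 0.55 with centred columns. Its obligate partner Ostm1, the beta subunit that stabilises it, was less even, at 1.58 and 6.16 FPKM in the rib sorts (3.91-fold higher in Col10+ cells) and at 3.26, 1.60, 2.21 and 1.04 FPKM in the osteoblasts. Each genotype had its higher Ostm1 value in library 1, and the genotypes overlapped. Clcn7 therefore exceeded Ostm1 5.07-fold in Col2+ cells, 1.60-fold in Col10+ cells and 1.97-fold to 5.75-fold in the osteoblast libraries. The related exchangers were also even between the rib sorts, with Clcn3 at 3.85 and 4.63 FPKM and Clcn4 (listed as Clcn4-2) at 11.02 and 8.65 FPKM. Clcn6 was at 6.83 and 6.15 FPKM. In the osteoblasts limma called none of the 4 relatives Clcn3, Clcn4, Clcn5 and Clcn6, with adjusted p from 0.138 (Clcn5) to 0.849 (Clcn4).

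Clcn7 is a lysosomal gene of most cells, and genes of this kind often carry the palindrome CACGTG, bound by TFEB, TFE3 and MITF. The promoter of its more upstream annotated start is shown beside that of Acp5. Both are acid-compartment genes but only Acp5 passed the 2-fold limit. The window (RefSeq, GRCm38.p6, chr17:25133141-25133440, plus strand, 5′ to 3′) holds CACGTG at bases 236 and 258, in capitals.
Clcn7: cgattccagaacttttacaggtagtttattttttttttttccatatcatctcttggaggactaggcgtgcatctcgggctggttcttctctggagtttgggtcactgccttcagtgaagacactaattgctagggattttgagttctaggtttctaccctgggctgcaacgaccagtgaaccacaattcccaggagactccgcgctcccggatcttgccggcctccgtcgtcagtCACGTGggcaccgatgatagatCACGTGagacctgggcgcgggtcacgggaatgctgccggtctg
The palindrome was in 1 of the 13 member windows and in 7.15% of all 32851 windows. The other Clcn7 window read, chr17:25136381-25136680, held neither the palindrome nor any other motif searched. Among the factors that bind these boxes, Tfe3 was at 30.2 and 22.1 FPKM, Tfeb at 18.5 and 14.1 FPKM and Mitf at 1.81 and 3.28 FPKM in Col2+ and Col10+ cells. Tfe3 and Tfeb lay under the 2-fold limit, and Mitf did not reach 5 FPKM.

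Other genes of acid transport and of the ruffled border included some that followed Acp5. Of 12 at 5 FPKM or more in either rib sort, 5 were higher in Col10+ cells, 0 lower and 7 under the limit (median 0.50). All 5 were under 5 FPKM in Col2+ cells and so entered through the sort in which they were high, which makes the count a description. Car2, the carbonic anhydrase that supplies the protons, was at 0.219 and 31.6 FPKM, the sorting nexin Snx10 at 0.541 and 10.997 FPKM, the sodium and proton antiporter Slc9b2 at 0.298 and 5.95 FPKM, and the lysosomal membrane protein Cln3 at 1.96 and 10.6 FPKM. Of 14 tested in the osteoblasts limma called 0, and the most abundant, Lamp1 and Rab7, had log2 changes of -0.24 and -0.32.

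The receptors Oscar and Calcr were scarcely read in any sample. Oscar, which pairs with the adaptor encoded by Fcer1g, was at 0.068 and 0.334 FPKM in Col2+ and Col10+ cells and at 0, 0.116, 0.202 and 0 FPKM in the osteoblasts. Calcr, the calcitonin receptor of mature osteoclasts, was at 0.0042 and 0.022 FPKM in the rib sorts and was listed above 0 in 1 osteoblast library, Runx2_cHom_KO 1, at 0.061 FPKM. Neither reached the 5 FPKM that the rib comparison asked for, so neither is called higher or lower. Col10+ cells with Acp5 at 156 FPKM thus had Calcr at 0.022 FPKM, and any difference in these receptors was not detectable at these levels.
The Oscar promoter holds the same E-box as Acp5, at base 244 (RefSeq, GRCm38.p6, chr7:3616108-3616407, minus strand, 5′ to 3′, capitals as above), and is printed to show a shared motif in a gene with a very different level.
Oscar: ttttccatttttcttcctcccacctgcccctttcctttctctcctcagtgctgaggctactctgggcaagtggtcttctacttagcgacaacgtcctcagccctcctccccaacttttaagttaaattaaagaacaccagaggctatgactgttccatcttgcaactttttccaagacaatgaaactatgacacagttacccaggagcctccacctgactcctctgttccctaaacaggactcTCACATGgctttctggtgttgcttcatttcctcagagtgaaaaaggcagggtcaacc

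Most of the signalling genes around these receptors were higher in the Col10+ sort, but not all. Of 16 receptor and costimulatory genes at 5 FPKM or more in either rib sort, 11 were higher and 3 lower (median 1.74), or 12 higher and 1 lower with centred columns. Of the 11, all but Plcg2 were under 5 FPKM in Col2+ cells and so entered through the sort in which they were high. The adaptor gene Tyrobp was listed at 0 and at 334 FPKM, and Fcer1g, the adaptor gene of Oscar, was at 0.171 and 157 FPKM. The kinase Syk was at 0.013 and 34.7 FPKM, and the M-CSF receptor Csf1r at 0.189 and 85.3 FPKM. These 4 genes are also read in macrophages and neutrophils. Tnfrsf11a, the RANK receptor, was at 0.061 and 4.16 FPKM, below the level asked for. The lower ones, named after their values were seen, were the calcineurin genes Ppp3ca (94.9 and 40.0 FPKM) and Ppp3r1 (41.1 and 19.3 FPKM) and the calcineurin inhibitor Rcan1 (1223 and 62.8 FPKM). The calls of Ppp3ca and Ppp3r1 were lost when the columns were centred on their median ratio. Of the ligands, Csf1 was 6.51-fold higher (1.82 and 11.8 FPKM), while Tnfsf11, which encodes RANKL, was at 3.76 and 2.85 FPKM and its decoy Tnfrsf11b at 52.5 and 34.6 FPKM, both under the limits. The summed level of the whole list was 1431 FPKM in Col2+ and 856 FPKM in Col10+ cells, with Rcan1 the largest part of the Col2+ sum. Of 16 receptor and costimulatory genes and 4 ligand genes tested in the osteoblasts limma called 0. The median of the former turned from -0.14 to 0.089 without Runx2_cHet_KO library 1.

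Nfatc1, the transcription factor that switches on most genes of this set in osteoclasts, did not follow them. It was at 49.8 FPKM in Col2+ and 43.6 FPKM in Col10+ cells, a difference of -0.19 on the log2(FPKM + 1) scale that became 0.11 with centred columns. In the osteoblasts it was at 32.9, 38.6, 57.1 and 39.4 FPKM, with Runx2_cHom_KO library 1 the highest and both Runx2_cHom_KO libraries above both Runx2_cHet_KO libraries. Col2+ cells, which had the highest rib value of Nfatc1, had Csf1r at 0.189 FPKM, Oscar at 0.068 FPKM and Spi1 (listed as Sfpi1), the myeloid factor PU.1, at 0. Nfatc1 made up 62.7% of the summed FPKM of Nfatc1, Nfatc2 and Nfatc3 in Col2+ cells, 73.6% in Col10+ cells and 54.5% to 69.3% in the osteoblast libraries. Its share was higher in both Runx2_cHom_KO libraries (69.3% and 66.0%) than in both Runx2_cHet_KO libraries (54.5% and 55.7%). Nfatc2 was at 13.1, 13.8, 11.8 and 7.05 FPKM in the osteoblasts and Nfatc3 at 14.5, 16.9, 13.5 and 13.2 FPKM, neither of them called. Both were lower in both Runx2_cHom_KO libraries, so the share does not describe Nfatc1 alone. The genotypes did not overlap for 58.0% of all genes tested. Nfatc2 was at 19.6 and 4.27 FPKM in the rib sorts, 4.60-fold lower in Col10+ cells.

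Other transcription factors of the osteoclast programme were divided. Of 20 at 5 FPKM or more in either rib sort, 4 were higher in Col10+ cells and 5 lower (median 0.00), and 6 were higher and 3 lower with centred columns. Spi1 was listed at 0 and at 83.2 FPKM. Irf8, which restrains osteoclast formation, was at 0.209 and 13.7 FPKM, and the AP-1 factor Fosl1 at 96.6 and 11.6 FPKM. In the osteoblasts 2 of 21 rose, Fos (384, 383, 677 and 962 FPKM, log2 change 1.07, standard error 0.18, limma adjusted p = 0.0330) and Jun (248, 176, 388 and 498 FPKM, log2 change 1.07, standard error 0.21, adjusted p = 0.0430). Both are immediate early genes of the AP-1 family, and their calls held in 3 of 10 alternatives each, with adjusted p from 0.0332 to 0.953 (Fos) and from 0.0181 to 0.953 (Jun). Without Runx2_cHet_KO library 1 the call of Fos was lost (adjusted p = 0.0623) and that of Jun was not.

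The first comparison set Col10+ against Col2+ rib cells. Of the 9 effector genes 7 reached 5 FPKM in either sort, and 5 of these exceeded the limit upwards in the Col10+ sort (a difference of 1 or more in log2(FPKM + 1)), namely Acp5, Atp6v0d2, Tcirg1, Ctsk and Ostm1, with 0 lower and 2, Clcn7 and Nfatc1, under the limit. Among all 8354 genes at that level 13.8% were higher and 14.2% lower (1150 and 1188 genes), a split that became 1494 and 648 genes with centred columns. The median difference was 2.52 over the 7 members and -0.31 over all genes at that level, and centring the columns moved these to 2.82 and -0.02 and left the 5 members past the limit. Acp5, Atp6v0d2, Tcirg1 and Ostm1 reached 5 FPKM only in Col10+ cells and so entered through the sort in which they were high, which makes the count and the median a description. Genes of other lists that were under 5 FPKM in Col2+ cells entered in the same way. The rib counts and medians of those lists are descriptions too.

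Markers of blood cells moved with the same 5 genes. All 10 neutrophil markers and 13 of 14 macrophage and monocyte markers were higher in Col10+ cells, with medians of 7.08 and 6.51. The neutrophil markers summed to 0.306 FPKM in Col2+ and 4082 FPKM in Col10+ cells, with 5 of 10 listed at 0 in Col2+ cells. The macrophage markers summed to 231 and 2061 FPKM, and Cd14 alone gave 227 FPKM of the Col2+ sum, where 6 of the 14 were listed at 0. Cd14 was also the 1 macrophage marker not past the limit (227 and 133 FPKM). The lysozyme gene Lyz2 was at 0.083 and 657 FPKM and the neutrophil gene S100a9 at 0.041 and 1929 FPKM. Of 10 further osteoclast markers, 6 reached 5 FPKM and 4 of them were higher in Col10+ cells. They were the protease Mmp9 (0.359 and 87.0 FPKM), Car2, Slc9b2 and Itgb3 (2.06 and 5.49 FPKM), the integrin with which osteoclasts attach. The fusion receptors Dcstamp and Ocstamp were listed at 0 and at 2.26 FPKM and were at 0.138 and 4.44 FPKM. The other fusion genes Sirpa, Cd44, Sbno2 and Cd47 were all higher, by log2 differences of 3.12, 1.81, 1.49 and 1.02. Hypertrophic chondrocyte and osteoblast markers were also higher, in 6 of 7 and 7 of 9 cases, with Spp1 the exception that was lower. The call of Spp1 was lost with centred columns. Spp1, Ibsp and Alpl stand on both lists, so the counts are not separate. Endothelial markers were higher in 5 of 6 cases (median 3.56), with sums of 3.11 and 84.1 FPKM, among them Pecam1 at 0.084 and 21.9 FPKM and Cdh5, listed at 0 and at 22.8 FPKM. The part of osteoclasts, other blood cells, endothelial cells and the labelled chondrocytes in the Col10+ levels was not tested, and in bulk RNA more cells of a type and more RNA per cell cannot be told apart.

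**Figure D3:**
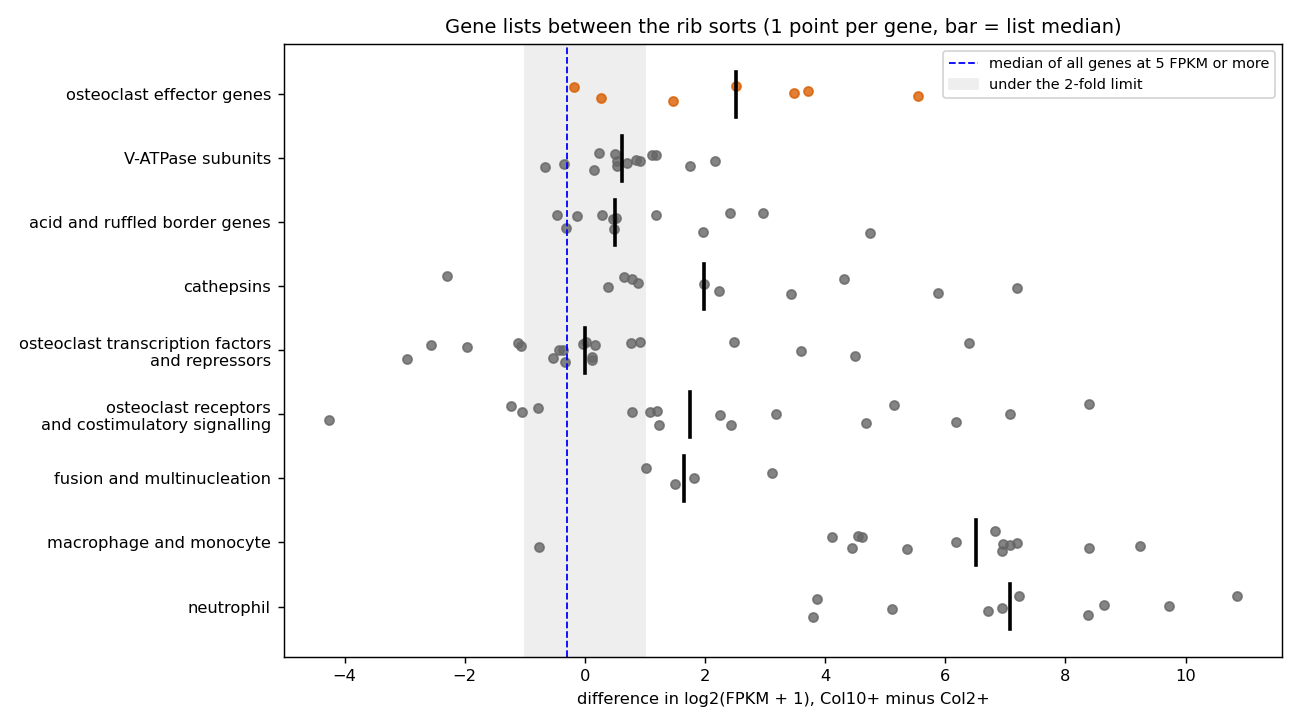
Difference in log2(FPKM + 1), Col10+ minus Col2+, for each gene of 9 lists at 5 FPKM or more in either sort, with black bars at list medians, a dashed line at the median of all such genes (-0.31) and grey shading under the 2-fold limit. The effector genes spread from -0.19 (Nfatc1) to 5.54 (Acp5), with a median of 2.52 that lies above the pump subunits (0.62) and below the macrophage (6.51) and neutrophil (7.08) markers.

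The second comparison set Runx2_cHom_KO against Runx2_cHet_KO osteoblasts. Of the 9 effector genes 6 reached 1 FPKM in at least 2 libraries and were tested, and limma called 0 of them (0 also at an unadjusted p under 0.05, and 0 without trended and robust variances), beside 3.69% of 11909 genes called (2.30% rose and 1.39% fell) and 26.8% at an unadjusted p under 0.05. The genotypes did not overlap for 3 of the 6, Ctsk, Clcn7 and Nfatc1, beside 58.0% of all genes tested. The median log2 change was -0.12 over the 6 members and -0.03 over all genes tested. The 3 members left out by the filter were Atp6v0d2, Oscar and Calcr.

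The intervals say how large a change the libraries could still hide. Ctsk went from 90.7 ± 1.33 to 80.9 ± 4.55 FPKM (SD, n = 2 in each genotype), a log2 change of -0.16 with a standard error of 0.10 and a 95% interval from -0.41 to 0.09 (limma adjusted p = 0.358), so a fall beyond 1.33-fold lies outside it. Clcn7 was bounded alike, at 6.37 ± 0.092 and 5.95 ± 0.040 FPKM, with a log2 change of -0.08 and an interval from -0.41 to 0.24 (adjusted p = 0.727). These are the best determined members. With no filter on low values the intervals widened to -0.66 to 0.34 (Ctsk) and to -0.76 to 0.60 (Clcn7), so the bounds depend on which genes enter the fit. Nfatc1 had the largest estimate upwards, from 35.8 ± 4.01 to 48.3 ± 12.5 FPKM, a log2 change of 0.40 with a standard error of 0.20 and an interval from -0.09 to 0.89 (adjusted p = 0.262). Without Runx2_cHom_KO library 2 the change was 0.66, and without Runx2_cHom_KO library 1 it was 0.14, neither of them called, and without Runx2_cHet_KO library 1 it was 0.29. For Acp5 the interval from -0.84 to 1.02 leaves room for changes of up to 2.03-fold in FPKM + 1. With no filter on low values the interval widened to -1.72 to 1.90, and the sign of the change turned with the libraries used. The change was 0.09 in all 4 libraries (adjusted p = 0.902), 0.59 without Runx2_cHet_KO library 1 (adjusted p = 0.244) and -0.41 without Runx2_cHet_KO library 2 (adjusted p = 0.366). Tcirg1 (log2 change -0.18, interval -0.67 to 0.32) and Ostm1 (-0.38, interval -1.23 to 0.47) also failed the test, with adjusted p of 0.616 and 0.531. Tcirg1 moved to -0.079 without Runx2_cHet_KO library 1 and to 0.059 without Runx2_cHom_KO library 2. Ostm1 moved to -0.02 without Runx2_cHet_KO library 1 and to -0.74 without Runx2_cHet_KO library 2.

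Mmp9, a collagenase and gelatinase that osteoclasts share with other cells, was the 1 gene called among 5 tested osteoclast markers outside the members. It was at 2.46, 3.20, 24.6 and 23.1 FPKM and rose 8.42-fold in means, with a log2 change of 2.70, a standard error of 0.15 and a limma adjusted p of 0.00523. Its rise was called in 7 of 10 alternatives, with adjusted p from 0.00355 to 0.508, and the calls were lost without Runx2_cHom_KO library 1 (0.159), without library 2 (0.167) and with no filter on low values. The difference between Mmp9 and the effector genes was not tested. Endothelial markers moved in the same direction as Mmp9, with 2 of 7 called, Tek (1.46, 1.35, 8.64 and 8.48 FPKM) and Flt1 (1.03, 0.677, 3.33 and 2.92 FPKM), with calls in 7 and 5 of 10 alternatives and summed levels of 23.5, 7.06, 54.4 and 47.2 FPKM. Without Runx2_cHet_KO library 1 all 7 endothelial markers rose (median 1.90), and Mmp9 rose by 2.56 (adjusted p = 0.00550). Their part in the Mmp9 level was not tested. Of 10 osteoblast markers tested 6 fell and 0 rose, among them Dmp1, Bglap, Bglap2, Spp1 and Sp7. The log2 changes of these ran from -4.96 (Dmp1) to -1.81 (Sp7), and each was called in 6 or 7 of 10 alternatives, that without Runx2_cHet_KO library 1 included. The genotypes thus differed in genes of the labelled cell type. Bglap and Bglap2 are near-identical neighbours, and their values are uncertain.

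**Figure D4:**
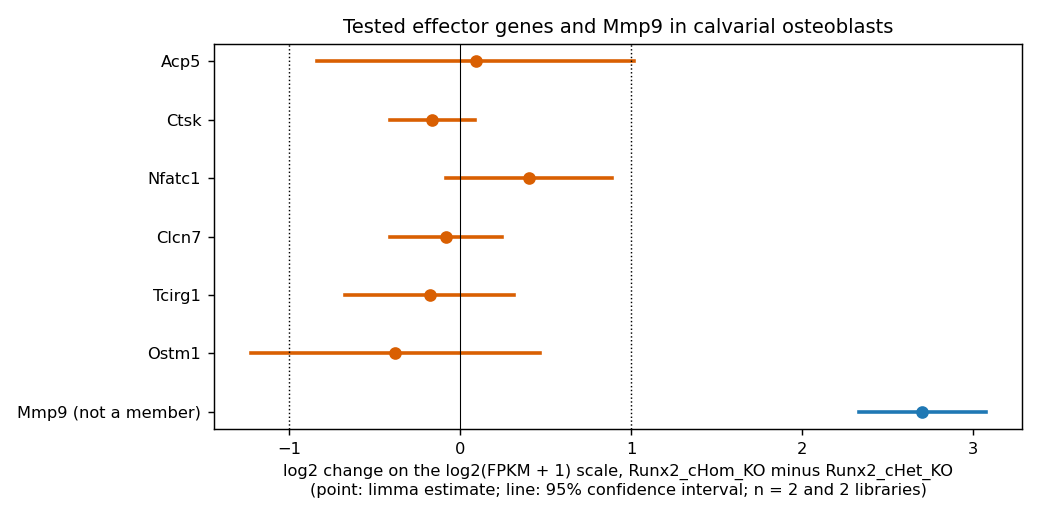
Change on the log2(FPKM + 1) scale, Runx2_cHom_KO minus Runx2_cHet_KO, for the 6 tested effector genes (orange) and for Mmp9 (blue), as limma estimates with 95% confidence intervals from 2 libraries each, and dotted lines at a change of 1 in size. All 6 member intervals cross 0, those of Ctsk and Clcn7 staying between -0.41 and 0.24, and Mmp9 stands at 2.70.

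Macrophage genes are set here beside Acp5 over the osteoblast libraries. The summed level of the 14 macrophage markers was 499, 74.7, 86.0 and 109 FPKM, with none of the 14 listed at 0 in any library, and Csf1r was at 36.6, 4.83, 6.84 and 9.79 FPKM. From highest to lowest both ran Runx2_cHet_KO 1, Runx2_cHom_KO 2, Runx2_cHom_KO 1 and Runx2_cHet_KO 2, which is also the order of Acp5 (5.54, 4.86, 3.15 and 2.28 FPKM). All 14 markers were highest in Runx2_cHet_KO 1, and 10 of the 14 had the full order. Lyz2 (33.0, 6.73, 8.03 and 6.38 FPKM) and C1qc (78.3, 11.1, 8.18 and 12.4 FPKM) were among those that did not. Of the 5 other tested effector genes 0 had it. The share of all genes with this order was not counted, so these counts are descriptions and set no member apart. Ctsk was highest in Runx2_cHet_KO 2, the library with the lowest macrophage level, but varied only 1.18-fold over the osteoblast libraries. Acp5 was 0.151 times Csf1r in Runx2_cHet_KO library 1, 0.461 to 0.496 times in the other osteoblast libraries and 1.83 times in Col10+ cells. Neutrophil markers summed to 4.0001, 0, 1.09 and 2.53 FPKM in the osteoblast libraries. Limma called 0 of the 14 macrophage markers between the genotypes (median log2 change -0.93). That direction rested on Runx2_cHet_KO library 1, since without it the median was 0.38, with 11 of the 14 positive and 0 called. Their part in the Acp5 levels was not tested.

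**Figure D5:**
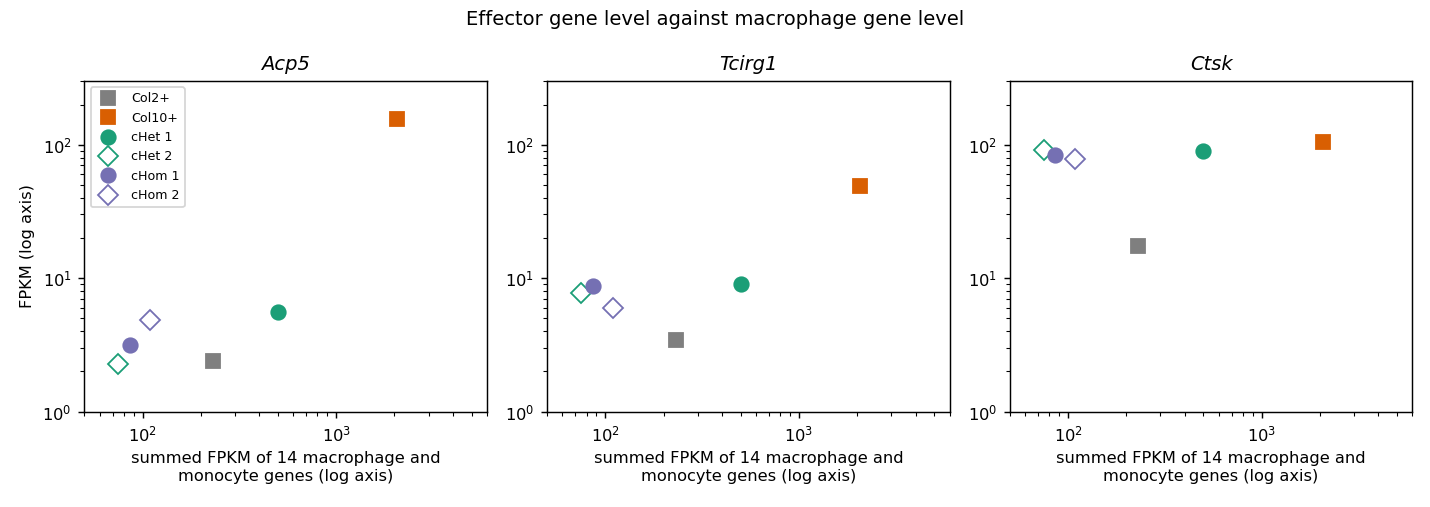
FPKM of Acp5, Tcirg1 and Ctsk against the summed FPKM of 14 macrophage and monocyte markers, both on log axes, with 1 point for each rib sort value and each osteoblast library. Col10+ is at the top right for all 3 genes, and Ctsk lies at 77.7 to 91.6 FPKM in the osteoblasts whether the macrophage sum is 74.7 or 499 FPKM.

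The genes nearest to each member over the 6 values were sought by Euclidean distance of log2(FPKM + 1), centred within each table, among 8787 candidates. For Acp5 they were Ncf4 (distance 0.233), Itgb2 (0.308) and Cxcr4 (0.415), and for Atp6v0d2 H2-Aa (0.319), Clec4a3 (0.389) and Cytip (0.393). Ncf4 and Itgb2 are leukocyte genes, a subunit of the phagocyte oxidase and the beta chain of leukocyte integrins, and H2-Aa is an MHC class II chain. For Ctsk they were Ifitm3 (0.148), an interferon-induced membrane protein, Gbp2 (0.167) and Lgr6 (0.191). Ifitm3 had levels close to those of Ctsk too, at 11.3 and 73.2 FPKM in the rib sorts and 81.5 to 108 FPKM in the osteoblasts. For Tcirg1 they were Arg2, Snx20 and Lgals9 (0.227 to 0.262), for Ostm1 Rhog, Hist1h4i and Fen1 (0.219 to 0.317), for Nfatc1 Prr16, Dusp18 and Fam89a (0.065 to 0.131) and for Clcn7 Serf2, Taok1 and Ube3b (0.040 to 0.046). Oscar and Calcr were left out, since neither reached 5 FPKM in any value.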

How the data were processed

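RNA was sequenced from 10 libraries, per the labels' protocols with a TruSeq kit on 100 ng of RNA for the sorted rib cells and with a SMARTer Stranded Pico kit on 1.7 ng for the osteoblasts. TopHat2 2.1.0, Cufflinks, Cuffdiff 2.2.1 and build mm9 are named in the submitters' processing notes, without their order. The tables hold FPKM made by the authors, per the file headers 1 value per rib sort and 1 per osteoblast library, and the sources used here do not say how rib replicates were combined. A total of 1 further column of values matched no sample and was not used.

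Rows with no gene name (3444 in the rib table) or with names turned into dates (25 and 26) were left out. For names with more than 1 row the one with the larger mean was taken. Analyses used log2(FPKM + 1), which understates changes of low genes. A rib gene was called at a difference of at least 1 (2-fold) and 5 FPKM in either sort, with no test. Osteoblast genes that reached 1 FPKM in 2 or more libraries were fitted with limma 3.58.1 (R 4.3.3, trended and robust variances), and p-values were adjusted by Benjamini-Hochberg over 11909 genes. A call needed an adjusted p under 0.05 and a change of at least 1 in size. With 2 libraries against 2, an exact permutation test cannot go below p = 0.333. No label says that libraries came from separate embryos, so p-values measure the spread between libraries, which may be technical. The tables were not tested against each other.

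The members, gene lists and tests were chosen with earlier results of these data known, and the motifs with the sequences in view. Named genes are all members, their paralogues and, from each list, up to 4 called genes by size of change or the 2 most abundant in the osteoblasts, not all of which are reported here. Others that bear on a sentence (such as Ctsf and the ligand genes) were named after their values were seen. Several genes stand on 2 lists, among them Csf1r, Tyrobp, Ctss, Car2, Itgb3 and Spp1. Alternatives changed the pseudocount (0.1), the filter, the centring, the variances, the handling of repeated rows, the libraries and the replicate block.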

Additional observations from a re-analysis of the deposited data

How the results depend on the processing

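The 0 effector genes called in the osteoblasts stayed at 0 in all 10 alternatives, and the 5 past the 2-fold limit in the rib cells stayed at 5 in all 4 run there. The 439 genes called in the osteoblasts became 0 with no filter on low values (1145 at an unadjusted p under 0.05), and lay between 0 and 609 when a library was left out. It was 0 without Runx2_cHom_KO library 1 (1692 at an unadjusted p under 0.05), 1 without Runx2_cHom_KO library 2 (1811), 559 without Runx2_cHet_KO library 1 and 609 without Runx2_cHet_KO library 2. Calls among the genes of the other lists numbered 11, and 0 with no filter, 6 with the replicate block and 0 to 31 when a library was left out. Among the fusion genes Cd44 moved from -0.99 to -1.17 without Runx2_cHet_KO library 1 and was then called. Same-numbered libraries did not deviate together (correlation -0.05 across genes). With 2 libraries in each genotype this cannot exclude a shared origin of libraries of the same number. The replicate block gave 293 calls in place of 439. Leaving out a library moved Acp5 between -0.41 and 0.59 and Tcirg1 between -0.42 and 0.059, turning the sign of Acp5 (-0.41 without Runx2_cHet_KO library 2, -0.16 without Runx2_cHom_KO library 2) and of Tcirg1 (0.059 without Runx2_cHom_KO library 2). Where a genotype is left with 1 library, that library is assumed to vary like the others. In the rib cells centring gave 1494 higher and 648 lower genes in place of 1150 and 1188, no filter gave 1940 higher, and Nfatc1 moved from -0.19 to 0.11. The cause of these shifts was not tested. Without counts, no counting error can be given for Oscar, Calcr or Atp6v0d2.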
